A study of Homo sapiens with 11 samples.

Results

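In CFPAC1 cells, 1534 of the 26211 reproducible FOS sites lay at an end of a protein-coding gene, carried H3K27ac and had no MYRF peak. That is 5.85% of the FOS sites. CFPAC1 and HPAF2 are established lines of human pancreatic ductal adenocarcinoma. Chromatin immunoprecipitation followed by sequencing (ChIP-seq) recovers the DNA that a protein or histone mark is bound to, and the deposited files list its peaks. Sites were chosen from peak presence and position. A reproducible site was a merged interval holding a FOS peak of both replicates. It had to overlap a peak in at least 1 of the 4 H3K27ac lists and in none of the 4 MYRF lists. Its replicate 1 summit, the base of highest signal, had to lie no farther than 1 kb from the start or the 3′ end of a protein-coding gene on GRCh38.

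The H3K27ac groups were a genome-edited CFPAC1 clone with Cas9 plus a MYRF guide RNA, called the knockout clone here, and a control clone that had received the same plasmid with no guide named in the labels. FOS was mapped in a clone described in the same words as that control. MYRF was mapped in unmodified CFPAC1 and HPAF2 cells. Each of these 5 groups had 2 libraries, and 1 HPAF2 input sample without a peak list was not analysed here. Each H3K27ac group is 1 clone, so the knockout and the clone cannot be told apart, and nothing states that the 2 libraries of a group were separate cultures. The lists do not show the edited MYRF sequence, so the knockout itself was not checked. The FOS lists held 29087 and 36349 peaks, the MYRF lists between 3702 and 4743, and the H3K27ac lists between 107586 and 116466. No read counts came with them, so depth is unknown. All 25 keratin and junction genes examined had an H3K27ac peak at an end in at least 1 library. So did 5 of 11 lymphocyte and stromal markers, all 62 ribosomal protein genes and 13418 of all 20037 protein-coding genes. These counts alone do not identify the cell type.

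FOS pairs with a JUN protein to form AP-1, a transcription factor that growth factors, stress and inflammatory signals switch on within minutes to hours. AP-1 binds the short palindrome TGACTCA and its relative TGAATCA, most often at enhancers far from genes. H3K27ac is a histone mark of active promoters and enhancers. MYRF is a membrane-anchored transcription factor of the endoplasmic reticulum that releases its DNA-binding part by cutting itself.

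The sequences that carried the main finding are printed first. The first 4 are the promoters of strongest FOS enrichment that held the AP-1 letters TGANTCA before the start, chosen after their values were seen. The others belong to genes of the protease and cytokine lists described further on. Each run is read 5′ to 3′ on the gene's strand, lies before an annotated start, comes from RefSeq (GRCh38.p14), and has the AP-1 letters in capitals.
LOC124902669: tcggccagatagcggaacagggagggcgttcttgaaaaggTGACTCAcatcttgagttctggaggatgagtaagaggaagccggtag
NDST1: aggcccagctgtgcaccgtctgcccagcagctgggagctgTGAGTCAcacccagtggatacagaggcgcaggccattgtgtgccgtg
ALOXE3: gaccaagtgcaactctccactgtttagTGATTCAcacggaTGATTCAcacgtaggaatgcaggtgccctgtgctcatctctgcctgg
MBNL2: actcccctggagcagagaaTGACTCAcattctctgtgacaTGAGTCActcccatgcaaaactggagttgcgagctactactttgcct
MMP10: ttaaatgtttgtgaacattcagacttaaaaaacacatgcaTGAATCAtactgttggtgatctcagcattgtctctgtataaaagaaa
CXCL8: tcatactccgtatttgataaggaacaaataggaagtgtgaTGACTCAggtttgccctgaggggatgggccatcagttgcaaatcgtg
IL1A: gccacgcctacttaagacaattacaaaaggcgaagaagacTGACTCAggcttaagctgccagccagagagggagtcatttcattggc

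The LOC124902669 run, chr11:46237249-46237335 on the plus strand, has its AP-1 letters 100 bases before the start of an uncharacterised gene. They lie 96 bp from the FOS summit. The NDST1 run, chr5:150497692-150497778 on the plus strand, has them 47 bases before the start and 6 bp from the FOS summit. NDST1 is an enzyme of heparan sulfate synthesis. The MBNL2 run, chr13:97141729-97141815 on the plus strand, and the ALOXE3 run, chr17:8118461-8118547 on the minus strand, each show 2 copies. A copy lies 31 bp from the summit at MBNL2 and 76 bp from it at ALOXE3. MBNL2 is a splicing regulator and ALOXE3 a lipoxygenase of the skin. The MMP10 run is chr11:102780649-102780735 on the minus strand, with the letters 14 bp from the summit. The CXCL8 run is chr4:73740392-73740478 on the plus strand, with the letters 3 bp from the summit. The IL1A run is chr2:112784459-112784545 on the minus strand, with the letters 23 bp from the summit.

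The AP-1 letters were much more frequent in these promoters than in acetylated promoters without FOS. RefSeq promoter windows of 300 bases, 250 before and 50 after each start, held a FOS summit of the 1534 sites in 204 cases. Of these 204 windows 85 contained TGANTCA on either strand, 41.7% (95% Wilson interval 35.1 to 48.5). Among 8340 windows that overlapped H3K27ac in both control libraries but no FOS or MYRF peak, 214 did, 2.57% (2.25 to 2.93). This gave an odds ratio of 27.1 (19.9 to 37.0; adjusted p = 1.7e-71 over 9 motifs, two-sided Fisher's exact test with Benjamini-Hochberg adjustment). Of all 19654 windows, 6.46% held the letters. The FOS windows had a lower GC content, with a median of 61.2% against 65.7%, and within 5 strata of GC content the odds ratio was 25.3 (18.1 to 35.2).

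The palindrome TGACTCA was in 33.8% of the FOS windows and in 1.37% of those without FOS. TGAATCA was in 11.3% and 1.20%. A single AP-1 site was found in 75 windows and 2 sites in 10, which leaves 119 windows without these letters. A further 55 windows held the summit of an acetylated FOS site with a MYRF peak. The share with AP-1 letters was 41.7% in windows without MYRF and 41.8% in those with it (odds ratio 0.99, 95% interval 0.54 to 1.82, two-sided Fisher's exact test).

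The letters were not concentrated at the summit itself. In the 85 windows the nearest AP-1 site lay a median of 75 bp from the summit, and in 25 of them (29.4%) within 50 bp. Density was 1.28 sites per kb within 25 bp of the summit, 2.99 at 50 to 75 bp and 2.73 at 75 to 100 bp, from 12, 23 and 19 sites. It was 1.49 at 100 to 125 bp and 2.25 at 125 to 150 bp. Windows without FOS held 0.0873 AP-1 sites per kb. Low density near the summit was not particular to AP-1 letters. GGGCGG had 1.92 per kb within 25 bp and 3.01 at 75 to 100 bp. CCAAT had 0.956 within 25 bp and 3.35 at 125 to 150 bp. These densities carry no test. By FOS fold enrichment in replicate 2, AP-1 letters were in 25.9% of the weakest of 4 near-equal groups of windows, then 32.7%, 56.0% and 52.9% in the strongest. The strongest and the weakest differed in replicate 2 (odds ratio 3.21; Fisher's exact test, adjusted over 15 comparisons, p = 0.0074). In replicate 1 the shares were 33.3%, 32.7%, 48.0% and 52.9%, and the same comparison missed the threshold (odds ratio 2.25, adjusted p = 0.089 by Fisher's exact test).

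Other motifs differed less. The antioxidant response element TGACNNNGC, which overlaps the AP-1 letters when the site reads TGACTCAGC, was in 23% of windows with a FOS summit and 14% of the others (odds ratio 1.83, 1.32 to 2.56, adjusted p = 0.0022 by Fisher's exact test). The SP1 letters GGGCGG were less frequent, at 52.5% against 70.6% (odds ratio 0.46, 0.35 to 0.61, adjusted p = 3.0e-07 by Fisher's exact test), and within GC strata the odds ratio was 0.72 (0.53 to 0.97). The ETS letters CCGGAAG were in 11.8% and 18.6% (odds ratio 0.58, 0.38 to 0.90, adjusted p = 0.030 by Fisher's exact test). The cAMP response element TGACGTCA, to which ATF and CREB proteins bind, was in 2.45% and 2.84%, with an odds ratio of 0.86 (0.35 to 2.11). The MYRF letters CTGGNAC were in 17.6% and 17.2%, with an odds ratio of 1.03 (0.72 to 1.49). CCAAT (30.4% and 34.3%), the NRF1 motif (2.45% and 2.34%) and the CArG box of serum response factor (0.98% and 1.04%) did not pass the adjusted threshold either. Within GC strata the CCAAT odds ratio was 0.68 (0.50 to 0.93), an interval below 1. All were searched on both strands, and a match describes letters, not binding.

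**Figure D1:**
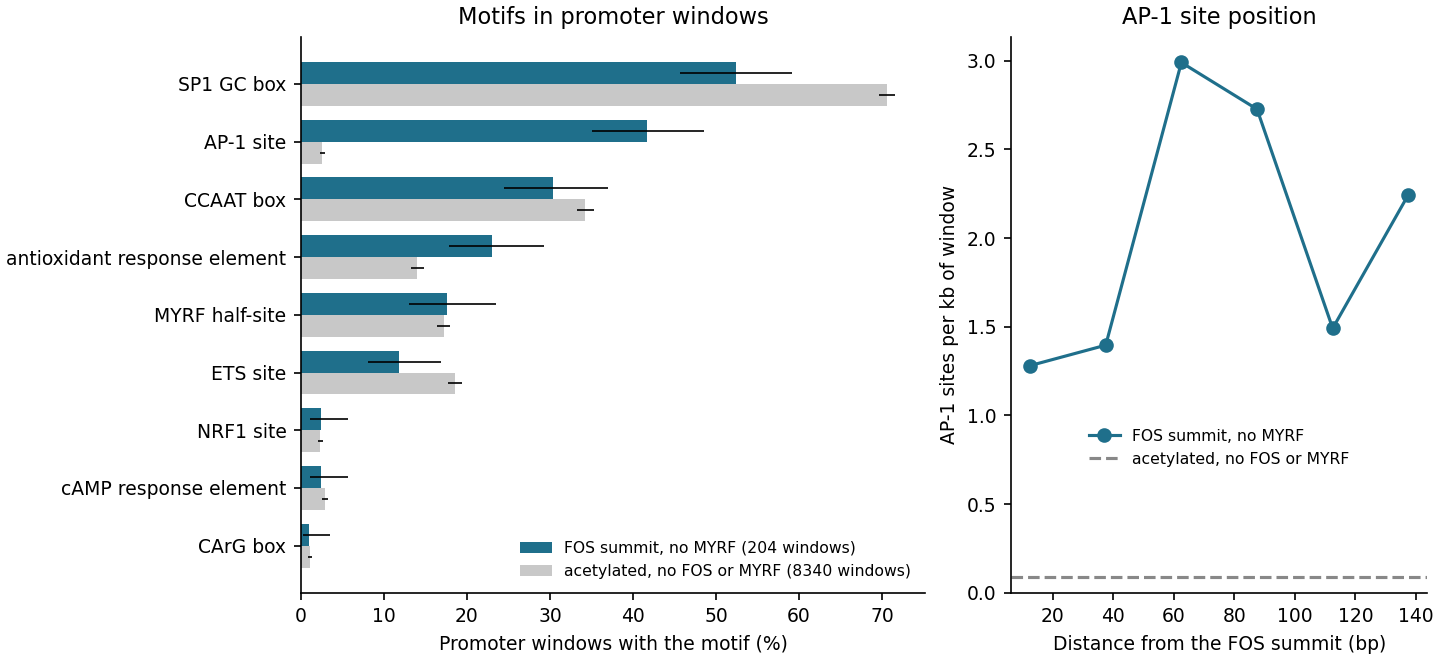
Left, share of RefSeq promoter windows (%) that hold each motif, with 95% Wilson intervals as bars, for 204 windows with a FOS summit and no MYRF and for 8340 acetylated windows without FOS or MYRF. Right, AP-1 sites per kb of window by distance from the FOS summit (bp, bin centres), with the density in windows without FOS as a dashed line. The AP-1 bars stand at 41.7% and 2.57%, and the density is highest 50 to 100 bp from the summit.

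FOS enrichment at the gene-end sites was moderate and agreed in rank between libraries. Fold enrichment, the authors' ratio of signal over local background at the summit, ran from 2.16 to 29.9 in replicate 1, with a median of 5.15. In replicate 2 it ran from 2.32 to 34.6, with a median of 5.66. Across the 1534 sites Spearman's rho between replicates was 0.72, given as a description since the sites share both libraries. The median site was 592 bp wide.

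The strongest sites lay at genes of varied function. EMP3, a tetraspan membrane protein, led with fold enrichments of 29.9 and 34.6 in the 2 FOS libraries at chr19:48325459-48326572, 613 bp inside the gene. H3K27ac there was 18 and 20.5 in the knockout clone, against 15.3 and 19.4 in the control clone. H3K27ac folds are scaled to each library's own background, so they are set side by side here and no direction between clones is read from them. FXYD2, a regulatory subunit of the sodium pump, had FOS values of 28.4 and 30.9. Its H3K27ac was 19.3 and 21.8 in the knockout clone, against 21.1 and 21.1 in the control clone. VIM, which encodes the mesenchymal intermediate filament vimentin, had 25 and 24.7 at chr10:17227516-17229119, and its summit lay 272 bp inside the gene. H3K27ac at VIM was 12.5 and 18.6 in the knockout clone, against 18 and 16.3 in the control clone. LOC124902669, whose promoter is printed above, had FOS values of 23.2 and 28.1, with the summit 1 bp before the start.

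Of the 12 strongest, 7 more were CIB3, YJU2B, TRERF1, STK40, ATP8B3, TMEM253 and DPF3, with 19.1 to 23.6 in replicate 1 and 21.2 to 29.0 in replicate 2. For CIB3, a calcium- and integrin-binding protein, TRERF1, a zinc finger transcription regulator, and DPF3, a chromatin remodelling subunit, the site lay at the 3′ end of the gene. TRERF1 had H3K27ac of 9.75 and 17.5 in the knockout clone, against 24.7 and 18.9 in the control clone. All 12 strongest had an H3K27ac peak in each of the 4 libraries.

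**Figure D2:**
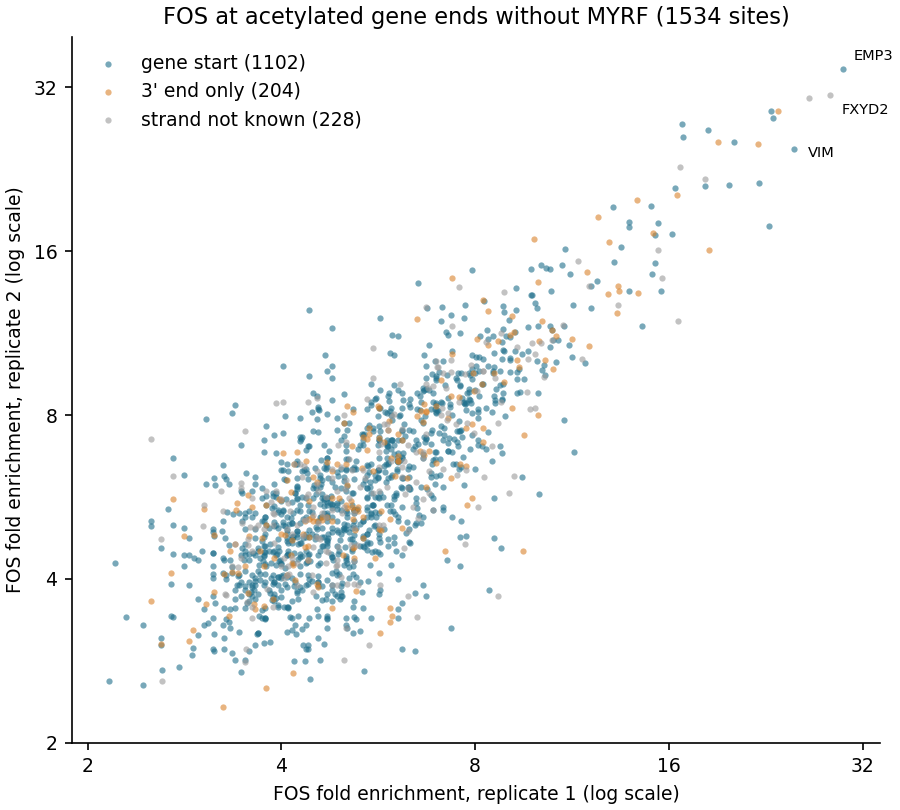
FOS fold enrichment in replicate 1 (x) and replicate 2 (y), both on log scales, for the 1534 sites, coloured by whether a gene start or a 3′ end only lies within 1 kb. The 3 labelled sites, EMP3, FXYD2 and VIM, sit at the upper right, far from the medians of 5.15 and 5.66.

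Gene-end sites were weaker than distal ones. A fold enrichment with a within-list percentile over 80 was reached in replicate 1 by 13.2% of the gene-end sites (11.6 to 15.0) and by 21.1% of 16741 acetylated FOS sites without MYRF farther than 1 kb from a gene end (20.5 to 21.7). The odds ratio was 0.57 (0.49 to 0.66; Fisher's exact test, adjusted over 15 comparisons, p = 1.7e-13). In replicate 2 the shares were 19.4% and 26.9% (odds ratio 0.65, 0.57 to 0.74; Fisher's exact test, adjusted p = 2.2e-10). They were also weaker than the 265 acetylated gene-end FOS sites with a MYRF peak, where the shares were 28.3% and 37.0%. The odds ratios were 0.39 (0.28 to 0.52) in replicate 1 and 0.41 (0.31 to 0.54) in replicate 2, with adjusted p = 1.8e-08 and 6.1e-09 by Fisher's exact test. These p-values count sites of 1 genome in these libraries, not cultures. Median width was 592 bp at the gene-end sites without MYRF, 678 bp at the distal sites and 749 bp at the gene-end sites with MYRF. The part of site width in these differences was not tested.

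Most sites lay at gene starts. The strand of the gene was known for 1306 sites, of which 1102 (84.4%, 82.3 to 86.2) had a start within 1 kb and 204 had a 3′ end only. Among 11698 gene-end H3K27ac regions without FOS or MYRF and with known strand, 89.1% (88.5 to 89.6) were at a start. Those regions were placed by their H3K27ac summit, and the FOS sites by their FOS summit. The odds ratio was 0.66 (0.56 to 0.78; Fisher's exact test, adjusted p = 2.3e-06), so 3′ ends took a larger share of the FOS sites as placed. The part of this difference in placement was not tested. At gene-end sites with MYRF the share at starts was 85.0%, and the odds ratio of sites without MYRF against them was 0.96 (0.64 to 1.43). A percentile over 80 in replicate 1 was reached by 11.3% of the sites at starts and by 21.1% of those at 3′ ends (odds ratio 0.48, adjusted p = 0.00068 by Fisher's exact test). In replicate 2 the shares were 18.1% and 22.5% (odds ratio 0.76, 0.53 to 1.09), which missed the threshold. At the 3′ ends, MAX, the partner of MYC, had FOS values of 16.5 and 20.3, and EHD2, a membrane-trafficking protein, had 15.1 and 17.3. Both were picked after their values were seen.

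FOS summits lay on both sides of the start, with a dip in the bin just before it. Of the 1102 summits 582 (52.8%, 49.9 to 55.7) lay inside the gene and 520 before it, with a median offset of 51 bp into the gene. The 100 bp before the start held 48 summits, fewer than the 89 at 300 to 200 bp before it. Inside the gene, 69 lay in the first 100 bp and 101 in the next. The outermost bin before the start held 20. These bin counts carry no test. Of all 1534 sites, 168 were within 100 bp of a gene end, 528 within 250 bp and 998 within 500 bp. At the 1 kb limit, HEXA (FOS 7.14 and 6.35) and PPA1 (3.04 and 5.48) were 1000 bp away and ADGRG6 (4.37 and 4.27) 998 bp. Just outside lay OXTR at 1003 bp (11.2 and 11.2), EFNA5 at 1004 bp (4.16 and 5.54) and KCNN4 at 1005 bp (8.07 and 7.89).

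**Figure D3:**
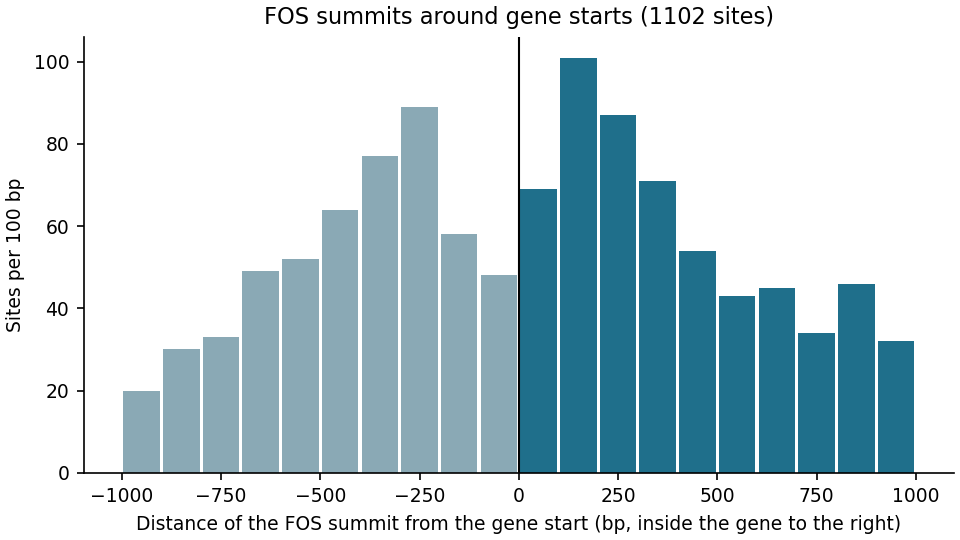
Number of FOS summits per 100 bp by their distance from the gene start (bp, inside the gene to the right) for the 1102 sites with a start within 1 kb. Counts peak at 89 before the start and at 101 inside the gene, and drop to 48 in the 100 bp before it.

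H3K27ac was present at most of these sites in both clones, and it was stronger at gene starts than at 3′ ends. Median H3K27ac fold enrichment was 14.7 and 12.5 in the knockout libraries, and 12.5 and 14.1 in the control libraries. At sites near a start it was 15.2 and 13.1 in the knockout libraries, and 13 and 14.8 in the control libraries. At sites near a 3′ end only it was 9.85 and 9.28 in the knockout libraries, and 9.10 and 8.99 in the control libraries, closer to the distal level. The distal sites had 8.49 and 8.37 in the knockout libraries, and 8.49 and 8.80 in the control libraries. Gene-end sites with MYRF were higher, with 19.5 and 16.3 in the knockout libraries, and 16.8 and 19.8 in the control libraries. These medians are described with no test. Of the 1534 sites 1391 (90.7%, 89.1 to 92) overlapped a peak in all 4 libraries, against 73.2% of the distal sites. The odds ratio was 3.56 (2.99 to 4.25; Fisher's exact test, adjusted p = 5.3e-60), and 1.96 (1.52 to 2.52) by the Mantel-Haenszel estimate over 10 strata of H3K27ac fold. Over all 22184 acetylated FOS sites the share was 77.4%. Gene-end sites with MYRF reached 96.6% (odds ratio of sites without MYRF 0.34). FOS and H3K27ac fold were barely related over the sites, with Spearman's rho between 0.011 and 0.043 in 8 pairs of libraries, a description with no test.

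The mark covered the FOS summit at most gene-end sites, and it covered distal summits less often. The summit base was inside an H3K27ac peak at 84.4% and 85.4% of the gene-end sites in the knockout libraries, and at 86.8% and 86.1% in the control libraries. At distal sites it was 51.5% and 59.7% in the knockout libraries, and 63.8% and 55.3% in the control libraries. Among sites with a peak 300 bp to either side, the summit was bare at 7.29% and 6.69% of the gene-end sites and 29.1% and 21.8% of the distal sites in knockout replicates 1 and 2. In control replicates 1 and 2 it was bare at 7.94% and 6.38% of the gene-end sites and 23.4% and 24.1% of the distal sites. The odds ratios ran from 0.19 to 0.28 over the 4 libraries. This comparison was chosen after the coverage profile of the same sites was seen, so it is a description with no test. Within 10 strata of H3K27ac fold the odds ratios were 0.29 to 0.39. H3K27ac regions overlapping these FOS sites were 1841 bp wide in the median, against 864 bp for gene-end regions without FOS or MYRF. The former had to overlap a FOS site and the latter no FOS or MYRF peak. A wider region meets such a peak more readily, so nothing is read from these 2 medians. The part of peak width in the differences between gene-end and distal sites was not tested.

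**Figure D4:**
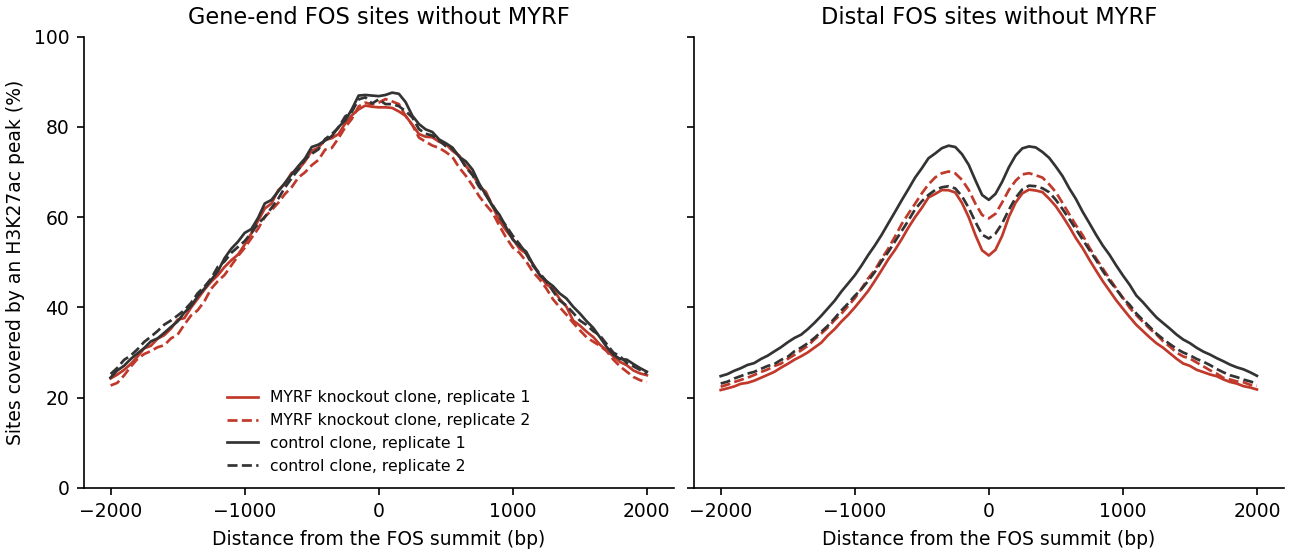
Share of sites (%) covered by an H3K27ac peak by distance from the FOS summit (bp), for 1534 gene-end and 16741 distal FOS sites without MYRF, 1 line for each library of the knockout clone (red) and the control clone (black). Distal sites dip at the summit to between 51.5% and 63.8%, and gene-end sites stay between 84.4% and 86.8%.

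Loss or gain of H3K27ac between the clones was rare. A site was called lost where both control libraries and neither knockout library had a peak, and gained for the opposite. In both classes these calls use the same H3K27ac lists by which the sites were chosen. Of the 1534 sites 3 were lost (0.196%, 0.067 to 0.57), against 1.69% of the distal sites (odds ratio 0.11, 0.036 to 0.36; Fisher's exact test, adjusted p = 1.7e-07). Another 3 were gained (0.196%), against 0.872% of the distal sites (odds ratio 0.22, 0.071 to 0.70, adjusted p = 0.0038 by Fisher's exact test). Over all acetylated FOS sites 1.44% were lost and 0.708% gained. At a −log10 q of at least 10 neither difference passed the threshold: the odds ratios were 0.72 for loss (p = 0.50) and 0.48 for gain (p = 0.44, both by Fisher's exact test, unadjusted). The share of gene-end sites called lost reached 1.77% when knockout replicate 2 was left out, and was 1.25% without knockout replicate 1, 0.724% without control replicate 1 and 1.11% without control replicate 2. H3K27ac was stronger at the gene-end sites, and within 10 strata of its fold the odds ratios were 0.23 (0.071 to 0.71) for loss and 0.57 (0.18 to 1.79) for gain, and the gain missed the threshold.

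At FMN2, an actin nucleator, H3K27ac was in neither knockout library, against 4.81 and 4.92 in the control libraries, and the nearest knockout peaks were 16140 and 15339 bp away. EGLN2, an oxygen-sensing prolyl hydroxylase, had no overlapping peak in the knockout clone, against 4.07 and 3.19 in the control clone. The nearest knockout peaks were 1105 and 583 bp from the EGLN2 site. RDH5, a retinol dehydrogenase, had 26.8 and 28.3 in the control libraries, but knockout peaks ended only 19 and 30 bp from the site. Among the gained sites SLC13A3, a dicarboxylate transporter, had 5.57 and 6.62 in the knockout clone and no overlapping control peak, although 1 control library had a peak 184 bp away. PRSS36, a serine protease, had 5.32 and 3.68 in the knockout clone, and NQO2, a quinone reductase, had 3.30 and 3.25. Control peaks lay 21 bp from the PRSS36 site and 13 bp from the NQO2 site at the nearest, so these sites bordered an H3K27ac peak in the control clone too.

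The 1534 sites reached 1692 genes, since 221 sites had 2 genes within 1 kb and 5 had 3. That is 12.6% of the 13418 protein-coding genes with an acetylated end, the level against which each gene list is read. The lists were drawn up with earlier results of these data known and carry no test, and in most of them a few genes separate the share from that level. In the all-gene set the median FOS fold was 5.18 in replicate 1 and 5.72 in replicate 2.

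The first lists cover matrix, migration and inflammation. Of 13 protease and urokinase genes with an acetylated end 5 (38.5%) had a site, with median FOS values of 8.58 and 8.54. The collagenase gene MMP13, of strand not known here, had FOS values of 8.77 and 11.3, and the stromelysin gene MMP10 had 8.58 and 8.54. At MMP10 an H3K27ac peak was called in control replicate 1 alone, at 2.30. The protease inhibitor TIMP1 had FOS values of 8.33 and 6.94. Of 9 mesenchymal genes 4 (44.4%) had a site, namely VIM, ZEB1, COL1A1 and CDH2. VIM stood far above the other members, which had between 3.65 and 5.69 in replicate 1.

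Of 24 cytokine and NF-kappaB genes 7 (29.2%) had a site. TNFAIP2, a TNF-induced gene, had FOS values of 10.1 and 10.9 at its 3′ end, and RELA, an NF-kappaB subunit, had 5.67 and 5.29. The neutrophil chemokine gene CXCL8 had FOS values of 7.40 and 6.50, with H3K27ac of 8.96 and 9.96 in the knockout clone, against 9.53 and 11.7 in the control clone. The cytokine gene IL1A had FOS values of 5.39 and 6.07, with H3K27ac of 8.49 and 5.05 in the knockout clone, against 5.17 and 5.26 in the control clone. The AP-1 letters printed for CXCL8 and IL1A lie within 25 bp of these summits.

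Genes that respond to growth signals followed. Of 36 immediate-early and MAPK feedback genes 10 (27.8%) had a site. Among them were PHLDA2 (10.5 and 11), the mRNA decay factor ZFP36L2 (8.58 and 9.37) and MYC (9.72 and 8.20). The strand of PHLDA2, ZFP36L2 and MYC was not known here, so start and 3′ end were not told apart for them. The zinc finger factor KLF6 had 5.47 and 7.37 at its 3′ end. Of 19 AP-1 and ATF genes 3 (15.8%) did, near the all-gene share. The FOS gene itself had FOS values of 6.59 and 8.44, with the summit 171 bp before its start, and the small MAF gene MAFF had 5.49 and 5.90. CREM, a cAMP-responsive factor, had 4.69 and 3.68. None of 11 EGFR family, MET and ligand genes had a site.

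In the lists for epithelial structure between 3 and 6 genes had a site. Of 30 actin and focal adhesion genes 6 (20.0%) did, led by VASP (10.8 and 11), which extends actin filaments, ZYX (8.23 and 10.1), a focal adhesion protein, and PDLIM7 (7.31 and 8.40). Of 15 integrin and laminin-332 genes 3 (20.0%) did. They included LAMB3 (6.99 and 8.17), which encodes a laminin chain of the basement membrane, and ITGA5 (7.13 and 5.36), a fibronectin receptor subunit. Of 25 keratin and junction genes 5 (20.0%) had a site. They were led by TJP1 (9.35 and 9.79, at its 3′ end) and CLDN4 (6.84 and 7.09), both of tight junctions. Of 17 S100 and annexin genes 4 (23.5%) did, including ANXA2 (6.68 and 7.98) and S100A6 (6.51 and 12, at its 3′ end).

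Protein turnover and stress made up further lists. Of 33 ubiquitin and proteasome genes 8 (24.2%) had a site, led by the proteasome subunit genes PSMD11 (7.69 and 8.47) and PSMD12 (6.63 and 8.96). Of 19 oxidative stress genes 4 (21.1%) did, namely OSGIN1, MT2A, SRXN1 and PRDX1, with 4.63 to 6.15 in replicate 1. None of 17 cytosolic heat shock chaperones had a site. Of 23 ER chaperone and folding genes 2 (8.70%) did, the translocon subunits SEC61B (8.81 and 10.9) and SEC61A1 (3.65 and 3.90). Of 21 unfolded protein response regulators 2 (9.52%) did. PPP1R15A, which restarts translation after stress, had 2 sites, with FOS values of 12.4 and 18.5 at the 3′ end and 5.99 and 9.08 at 873 bp into the gene. SYVN1, a ubiquitin ligase of ER-associated degradation, had 8.41 and 3.81.

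The remaining lists ranged from 7.14% to 28.6%. Of 62 ribosomal protein genes 7 (11.3%) had a site, with median FOS values of 4.16 and 4.37. Of 23 HNF, FOXA, GATA, ETS, KLF and SOX9 factors 3 (13%) did, led by FOXA1 (7.73 and 12.7). Of 24 cell cycle genes 3 (12.5%) did, among them SFN (7.27 and 11.2), a 14-3-3 protein, and CDK4 (4.33 and 6.33), a cyclin-dependent kinase. Of 14 pancreatic cancer driver genes 1 (7.14%) did. Of 16 BCL2 family and apoptosis genes 3 (18.8%) did, all with 4.21 to 6.29 in replicate 1. Of 14 replication-dependent histone genes 4 (28.6%) did, and H3C1 and H4C1 share 1 site. Among the 5 lymphocyte and stromal markers with an acetylated end CD68 had a site (4.54 and 8.67).

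**Figure D5:**
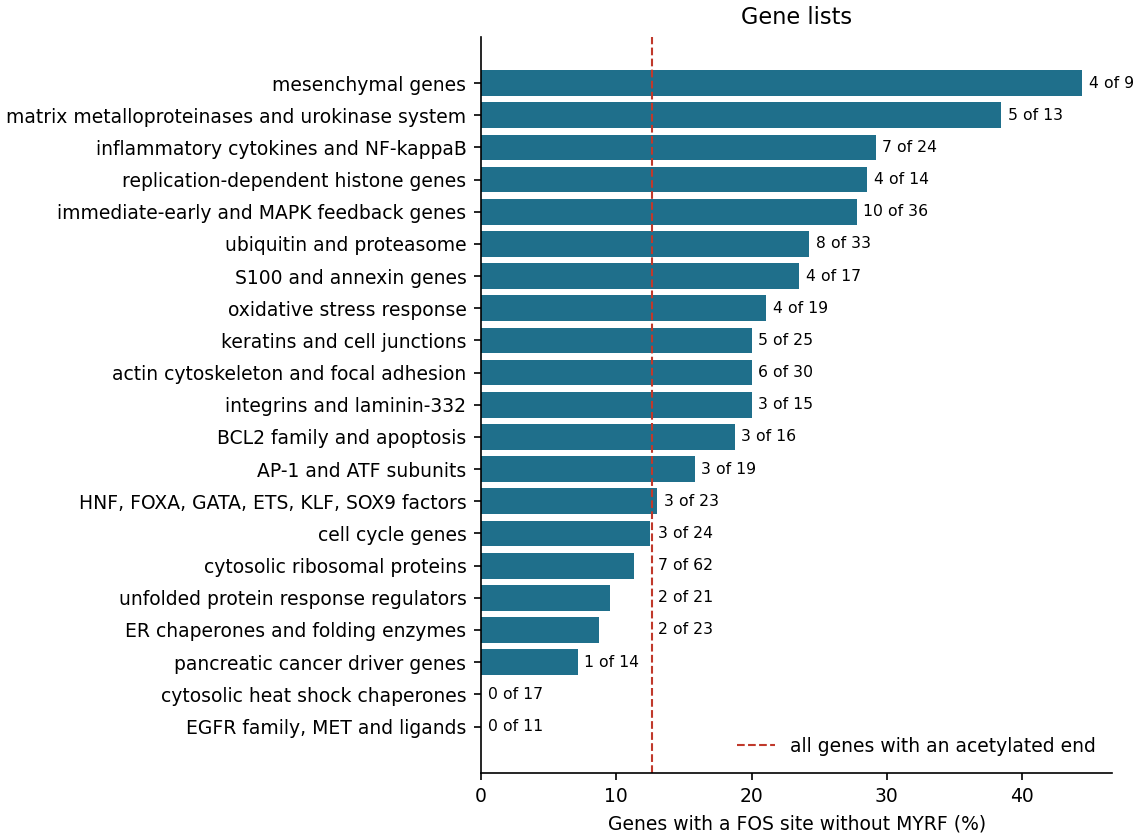
Share (%) of genes with an acetylated end that had a FOS site without MYRF at that or the other end, for 21 gene lists, with the counts beside each bar and the share among all 13418 genes (12.6%) as a dashed line. The mesenchymal and protease lists stand highest, at 44.4% and 38.5%, and the heat shock and EGFR lists have none.

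Few genes held more than 1 site. At least 2 sites were found at 72 genes and 3 at 1, the zinc finger gene ZNF774. Its FOS values were 3.90 and 5.44 at the start, 4.14 and 4.42 at 575 bp from the 3′ end, and 5.70 and 3.18 at 304 bp from it. HSD17B8, a steroid dehydrogenase, had 13.2 and 15.3 at the start and 6.95 and 8.31 at the 3′ end. NANOS3, a germ cell factor, had 4.35 and 2.83 at the start and 12.9 and 16.6 at the 3′ end. Over the chromosomes that held a site, sites per 100 genes with an acetylated end ranged from 17.0 on chromosome 4 and 16.2 on chromosome 14 to 4.05 on chromosome 18, which held 7 sites. The copy number of these chromosomes in CFPAC1 was not examined.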

How the data were processed

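ChIP-seq peak lists of 10 libraries were used. Tools named in the submitters' processing notes are MACS2 2.1.0.20150731, SAMtools, Trimmomatic 0.38 and Bowtie2 2.2.6, and the build is GRCh38. The deposited lists give each peak's fold enrichment (a ratio over local background), its −log10 p, −log10 q and a score. The control used for calling in CFPAC1 is not given in the sources used here, so folds were ranked and tested within a list only, and those of the clones stand side by side as description. Overlap meant at least 1 bp. Gene ends came from RefSeq (GRCh38.p14, 20037 protein-coding genes, strand known for 15843). Shares carry Wilson 95% intervals for counting error over sites. Classes were compared by two-sided Fisher's exact tests, adjusted (Benjamini-Hochberg) over 15 comparisons or 9 motifs, with Mantel-Haenszel strata. These tests were also run on simulated independent sites, whereas the real sites share libraries. The simulated event for Fisher's test was commoner than loss or gain, so calls that rare were not covered. Named genes were the 12 strongest sites, up to 4 per list, lost and gained sites, sites at the 1 kb limit and 4 genes with most sites. Some items that this rule selects are not reported here. The members and lists were chosen with earlier results of these data known. Replicates may be technical. Python 3.11.15, numpy 2.4.6, pandas 2.3.3, scipy 1.17.1, matplotlib 3.10.9 and bedtools 2.31.1 were used.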

Additional observations from a re-analysis of the deposited data

How the results depend on the processing

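Of 207 alternative values 186 kept their direction, their side of the threshold and, for counts and shares, their size. With a −log10 q of at least 10 there were 505 sites, the odds ratio against distal sites for a percentile over 80 in replicate 2 was 0.87 (p = 0.15 by Fisher's exact test), the share lost 1.39%, and the odds ratios against distal sites 0.72 for loss (p = 0.50) and 0.48 for gain (p = 0.44). Within 500 bp of a gene end there were 998 sites, and 0% were lost. Requiring an overlap of the shorter interval by 50% gave 0.734% lost. Over 10 strata of H3K27ac fold the odds ratio for gain was 0.57, past the threshold no longer. Leaving out each library in turn gave 1519 to 2440 sites, the most without FOS replicate 1, and 0.191 to 1.77% lost, the most without knockout replicate 2, since 1 list then decides the call. The odds ratio for AP-1 letters ran from 16 to 27.7 without 1 library and from 12.1 to 31.4 under the other settings; 12.1 counted windows overlapped by a site (161 of 666), added after seeing the data. The odds ratios for a bare summit, described with no test, stayed below 1 in all 17 alternatives run for each H3K27ac library. Outside their main intervals were 0.12 in control replicate 2 at a −log10 q of at least 10, and 0.26 in knockout replicate 1 and 0.37 in control replicate 1 within 2 kb. So were the values over 10 strata of H3K27ac fold, an alternative added after seeing the data, at 0.32 and 0.35 in knockout replicates 1 and 2, and 0.39 and 0.29 in control replicates 1 and 2. No paired analysis was possible because the results come from presence of peaks in lists, with no fit over samples. Gain could not be computed with H3K27ac required in both control lists. Depth is unknown, so an absent peak is not absent signal.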
